A study of Mus musculus with 9 samples.

Results

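The transcript levels of 7 genes that mark pericytes were described in 9 mouse hearts, as 7 of 22180 gene symbols on the array: Kcnj8, Abcc9, Rgs5, Notch3, Pdgfrb, Cspg4 and Mcam. The genes were taken by symbol: a probe set was a member if the array's annotation gave it 1 of these symbols and no other. This gave 8 probe sets among 33793 on the array, 1 for each gene and 2 for Rgs5, and all 8 had a mean log2 signal above 5.21, the level required for testing. RNA came from snap frozen hearts of mice aged 2 months, with 3 wild type hearts, 3 from Col4a3-/- mice, which lack a chain of basement membrane collagen IV and model Alport syndrome, and 3 from Col4a3-/-OPN-/- mice, which also lack osteopontin. Both mutant groups therefore share the loss of Col4a3, and no heart lacked osteopontin alone. Each array held 1 heart, and the labels give neither strain nor sex.

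Pericytes are mural cells embedded in the basement membrane of capillaries, which they share with the endothelium. Endothelial cells recruit them with the growth factor PDGF-B, which acts on the receptor encoded by Pdgfrb, and Notch signals from the endothelium sustain them. In the heart they are numerous and lie along the dense capillary bed between cardiomyocytes, where they help to set capillary tone. None of the genes is exclusive to them: Kcnj8, Abcc9, Rgs5, Notch3 and Mcam are also made by smooth muscle cells, Mcam by endothelial cells, Pdgfrb by some fibroblasts, and Abcc9 by cardiomyocytes. In whole heart RNA, fewer cells of a type and less RNA per cell cannot be told apart.

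The genotypes could not be checked on the targeted genes: the only Col4a3 probe set lay under the level required for testing on average (4.87 to 5.52 over the 9 hearts), and no probe set carried the osteopontin symbol Spp1. Some hearts stood apart from others of their genotype. For Xist, the RNA that coats the silent X, 3 hearts were high: Col4a3-/- replicate 1 (7.59), Col4a3-/- replicate 3 (8.50) and Col4a3-/-OPN-/- replicate 2 (8.56). The other 6 hearts, all wild type ones included, lay between 4.52 and 4.77. The atrial gene Bmp10 was lowest in Col4a3-/- replicate 1 (5.72), next lowest in Col4a3-/- replicate 3 (7.40), and 9.17 or more elsewhere. The airway gene Scgb1a1 was at 12.2 in Col4a3-/- replicate 2, at 9.81 and 9.52 in replicates 1 and 3 of Col4a3-/-OPN-/-, and between 4.54 and 6.10 in the other 6 hearts, and the endothelial activation gene Sele reached 8.26 in Col4a3-/- replicate 3. The brown fat gene Ucp1 was at 11.06 in Col4a3-/- replicate 2 and at 4.79 and 5.03 in Col4a3-/- replicates 1 and 3. In the other 6 hearts it lay between 6.81 and 9.20. Heart muscle genes were at high signal in all groups, with the troponin gene Tnnt2 at 12.9 on average in wild type hearts.

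The promoters of 4 of the genes are shown, chosen for these reasons. Kcnj8 and Abcc9 encode the 2 parts of 1 channel and are next to each other on chromosome 6. For the brighter of the 2 Rgs5 probe sets, all 3 Col4a3-/- hearts lay below the other 6. Notch3 acts through a factor, RBPJ, whose binding core can be looked for in the others. RefSeq promoter windows of assembly GRCm38.p6, from 250 bases before to 50 after the annotated start, were found for 6 of the 7 genes. Motifs were searched on both strands: the RBPJ core TGGGAA, the GC box GGGCGG, the TATA box TATAAA and the CArG box of serum response factor. The capitals mark every match to these 4 motifs, and a lower case stretch holds none.

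Kcnj8 promoter, GRCm38.p6 chr6:142571565-142571864, minus strand: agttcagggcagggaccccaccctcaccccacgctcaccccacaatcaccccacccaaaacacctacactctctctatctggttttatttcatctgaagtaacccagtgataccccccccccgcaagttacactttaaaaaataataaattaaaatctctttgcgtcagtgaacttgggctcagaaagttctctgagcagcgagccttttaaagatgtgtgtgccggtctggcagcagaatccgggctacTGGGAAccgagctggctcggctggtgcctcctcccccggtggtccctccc
Abcc9 promoter, GRCm38.p6 chr6:142702225-142702524, minus strand: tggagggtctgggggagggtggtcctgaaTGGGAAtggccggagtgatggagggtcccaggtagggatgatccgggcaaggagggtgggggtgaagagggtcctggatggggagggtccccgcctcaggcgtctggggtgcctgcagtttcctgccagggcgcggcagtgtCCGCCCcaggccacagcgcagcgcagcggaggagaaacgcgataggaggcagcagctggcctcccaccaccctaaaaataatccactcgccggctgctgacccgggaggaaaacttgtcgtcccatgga
Rgs5 promoter, GRCm38.p6 chr1:169655251-169655550, plus strand: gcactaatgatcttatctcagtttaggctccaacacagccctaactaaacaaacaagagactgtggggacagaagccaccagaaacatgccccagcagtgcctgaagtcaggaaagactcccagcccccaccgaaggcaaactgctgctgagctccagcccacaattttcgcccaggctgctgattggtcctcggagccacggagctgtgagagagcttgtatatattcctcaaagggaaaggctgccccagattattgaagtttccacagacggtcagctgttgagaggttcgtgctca
Notch3 promoter, GRCm38.p6 chr17:32166841-32167140, minus strand: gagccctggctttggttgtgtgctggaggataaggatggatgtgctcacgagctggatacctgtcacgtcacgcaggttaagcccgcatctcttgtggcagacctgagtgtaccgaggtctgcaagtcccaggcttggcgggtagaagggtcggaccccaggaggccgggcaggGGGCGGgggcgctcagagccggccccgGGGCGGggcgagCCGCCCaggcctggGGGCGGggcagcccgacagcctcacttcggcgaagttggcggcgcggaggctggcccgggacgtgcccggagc

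The window of Kcnj8 held 1 RBPJ core at its base 251, counted from the 5′ end of the window, and no other of the 4 motifs. Abcc9 held 1 RBPJ core at base 30 and 1 GC box at base 172, read on the opposite strand. The RBPJ core was in 25.4% of all 32544 windows, so the finding in both neighbours is a description only. Notch3 held 4 GC boxes, at bases 175, 202, 214 and 228, of which that at 214 was on the opposite strand, against 35.9% of windows with at least 1. Rgs5 held none of the 4 motifs and 1 E-box (CANNTG) at base 277, a motif found in 72.3% of windows. The TATA box (13.6% of windows) and the CArG box (1.64%) were in none of the 6 windows. A match of letters is not a site of binding.

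The 7 genes were chosen by name, with their log2 differences between these genotypes known from earlier results. Their values are therefore given as a description, with the standard error (SE) of each log2 difference from 1 limma fit over all 13650 tested probe sets, and without p-values. A signal is given in log2 units, the values of a genotype stand in the order of its replicates 1, 2 and 3, ± gives the SD of 3 hearts, and signals are compared between hearts and not between genes.

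Kcnj8 encodes the pore, and Abcc9 the sulfonylurea receptor, of the ATP-sensitive potassium channel of pericytes and vascular smooth muscle. Kcnj8 (probe set 17472530) was at 8.30, 8.53 and 8.42 in wild type hearts, at 8.25, 7.28 and 7.36 in Col4a3-/- hearts, and at 8.19, 8.40 and 8.34 in Col4a3-/-OPN-/- hearts. Col4a3-/- replicates 2 and 3 lay far below the other 7 hearts, while replicate 1 lay just under the wild type range and inside that of Col4a3-/-OPN-/-. The group mean was 7.63 ± 0.54 in Col4a3-/-, against 8.41 ± 0.11 in wild type (n = 3 each), which is 1.73-fold lower (log2 difference -0.79, SE 0.22). Col4a3-/-OPN-/- hearts, at 8.31 ± 0.11 (n = 3), were 1.60-fold above Col4a3-/- hearts (log2 difference 0.68, SE 0.22) and differed from wild type by -0.11. Without Col4a3-/- replicate 1 the differences were -1.10 from wild type and 0.99 for Col4a3-/-OPN-/- over Col4a3-/-. Without Col4a3-/- replicate 2 the differences were -0.61 and 0.51, and without Col4a3-/- replicate 3 they were -0.65 and 0.54.

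Abcc9 (17472536) did not follow its partner gene. It was at 11.01, 10.87 and 11.07 in wild type hearts and at 10.88, 10.95 and 11.07 in Col4a3-/- hearts, ranges that nearly coincide. In Col4a3-/-OPN-/- hearts it was at 11.31, 11.25 and 10.94, with replicates 1 and 2 the highest of all 9 hearts and replicate 3 inside the range of the others. The log2 difference of Col4a3-/- from wild type was -0.02 (SE 0.12), where Kcnj8 had -0.79, and it changed sign when wild type replicate 3 or Col4a3-/- replicate 1 was left out (0.02 in both cases). Cardiomyocytes also make Abcc9, and the probe set does not separate their transcripts from those of mural cells. Kcnj11 (the pore in cardiomyocytes) and Abcc8 (a receptor of the atria in mice) differed by -0.60 and -0.41 between Col4a3-/- and wild type (log2). Between Col4a3-/-OPN-/- and Col4a3-/- they differed by 1.14 and 0.65. Groups did not overlap for either gene in the first comparison (7.9% of all tested probe sets were lower without overlap) or the second (10.1% were higher). Neither was called (smallest limma adjusted p = 0.0888, for Kcnj11 in the second). Signals of atrial genes were also lower in Col4a3-/- hearts (6 of 6 listed genes, with a summed log2 signal of 12.86 to 13.74 against 13.85 to 13.97 in wild type and 13.63 to 13.80 in Col4a3-/-OPN-/- hearts), and their part in the values of Kcnj11 and Abcc8 was not tested.

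**Figure D1:**
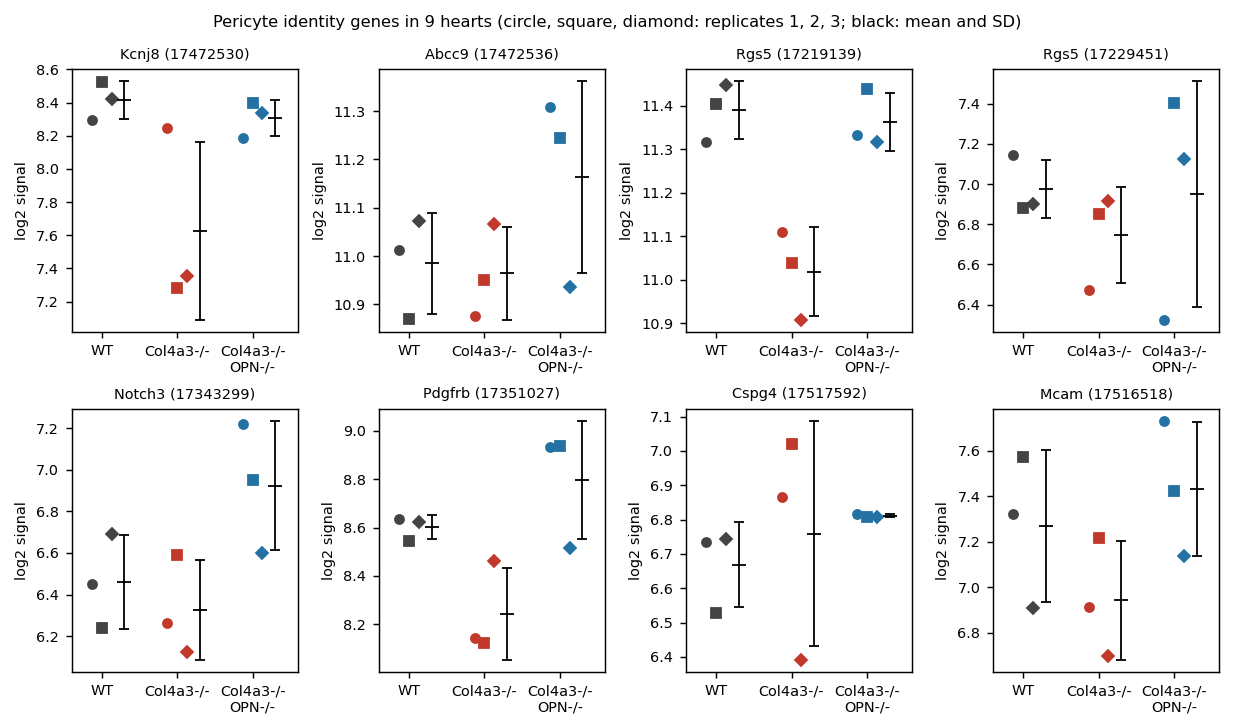
Log2 signal of each of the 8 probe sets (1 panel each, with its own vertical scale that does not start at 0) in wild type (WT), Col4a3-/- and Col4a3-/-OPN-/- hearts. Circles, squares and diamonds are replicates 1, 2 and 3 of a genotype, and the black bar is the mean ± SD of 3 hearts. For Rgs5 (17219139) and Pdgfrb all 3 Col4a3-/- hearts lie below the other 6, and for Kcnj8 only replicates 2 and 3 lie far below.

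Rgs5 encodes a regulator that shortens signalling by G protein-coupled receptors and is among the best known transcripts of pericytes. Its brighter probe set (17219139) was at 11.32, 11.40 and 11.45 in wild type hearts, at 11.11, 11.04 and 10.91 in Col4a3-/- hearts, and at 11.33, 11.44 and 11.32 in Col4a3-/-OPN-/- hearts. All 3 Col4a3-/- hearts lay below the other 6, and the other 6 spanned only 11.32 to 11.45. Col4a3-/- hearts were 1.29-fold below wild type (11.02 ± 0.10 against 11.39 ± 0.07, n = 3 each, log2 difference -0.37, SE 0.09), and Col4a3-/-OPN-/- hearts (11.36 ± 0.07, n = 3) were 1.27-fold above Col4a3-/- (0.34, SE 0.09). The second probe set (17229451) did not show this separation: it ranged from 6.88 to 7.14 in wild type, from 6.47 to 6.92 in Col4a3-/- and from 6.32 to 7.41 in Col4a3-/-OPN-/- hearts, so that the groups overlapped. Its log2 difference of Col4a3-/- from wild type was -0.23 (SE 0.25), of the same sign and within its error of 0.

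Pdgfrb encodes the receptor through which PDGF-B holds pericytes at the endothelium. Its signal (17351027) was 8.64, 8.55 and 8.62 in wild type hearts, 8.14, 8.12 and 8.46 in Col4a3-/- hearts, and 8.94, 8.94 and 8.52 in Col4a3-/-OPN-/- hearts. As for Rgs5, the 3 Col4a3-/- hearts were the lowest of the 9, although replicate 3 was close to Col4a3-/-OPN-/- replicate 3. Over 13650 tested probe sets, 4.01% had all 3 Col4a3-/- hearts below the other 6, as had 2 of the 7 genes. Col4a3-/- hearts were 1.28-fold below wild type (8.24 ± 0.19 against 8.60 ± 0.05, n = 3 each, log2 difference -0.36, SE 0.15). Col4a3-/-OPN-/- hearts (8.80 ± 0.24, n = 3) were 1.47-fold above Col4a3-/- hearts (0.55, SE 0.15), and 0.19 (SE 0.15) from wild type.

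Notch3 encodes the Notch receptor of mural cells. It was at 6.45, 6.24 and 6.69 in wild type hearts, at 6.26, 6.59 and 6.13 in Col4a3-/- hearts, and at 7.22, 6.95 and 6.60 in Col4a3-/-OPN-/- hearts (17343299). Wild type and Col4a3-/- hearts overlapped (log2 difference -0.13, SE 0.19), and it was Col4a3-/-OPN-/- replicates 1 and 2 that lay above all other hearts. Col4a3-/-OPN-/- hearts (6.92 ± 0.31) were 1.51-fold above Col4a3-/- hearts (6.33 ± 0.24, n = 3 each, log2 difference 0.60, SE 0.19) and 1.38-fold above wild type (6.46 ± 0.23, n = 3, log2 difference 0.46, SE 0.19). The difference from wild type is the largest of the 7 genes in that comparison, and it lay between 0.32 and 0.63 over the 20 alternative settings. Replicate 3 of Col4a3-/-OPN-/- was inside the wild type range, so the groups were not separate there.

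Cspg4 encodes the NG2 proteoglycan, and Mcam the adhesion molecule CD146, both on the surface of pericytes. Cspg4 (17517592) was at 6.74, 6.53 and 6.74 in wild type hearts, at 6.86, 7.02 and 6.39 in Col4a3-/- hearts, and at 6.82, 6.81 and 6.81 in Col4a3-/-OPN-/- hearts. The Col4a3-/- hearts held both the highest and the lowest of the 9 values, and Col4a3-/-OPN-/- hearts hardly varied. The log2 differences were 0.09 (SE 0.16) for Col4a3-/- against wild type and 0.05 (SE 0.16) for Col4a3-/-OPN-/- against Col4a3-/-, the latter of the opposite sign after renewed quantile normalization (-0.04) and in 4 other settings. Mcam (17516518) was at 7.32, 7.57 and 6.91 in wild type hearts, at 6.91, 7.22 and 6.70 in Col4a3-/- hearts, and at 7.73, 7.42 and 7.14 in Col4a3-/-OPN-/- hearts. Its 3 groups overlapped, with Col4a3-/- replicate 3 the lowest and Col4a3-/-OPN-/- replicate 1 the highest heart. The log2 difference was -0.33 (SE 0.21) for Col4a3-/- against wild type and 0.49 (SE 0.21) for Col4a3-/-OPN-/- against Col4a3-/-.

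Setting Col4a3-/- against wild type hearts addresses the loss of Col4a3, with markers of sex not balanced between the groups. Of the 7 genes, 6 were lower in Col4a3-/- hearts and only Cspg4 was higher, with a median log2 difference of -0.33, where the median over all tested probe sets was -0.02 and 55.0% of them were lower. The differences ran from -0.79 for Kcnj8 through Rgs5, Pdgfrb and Mcam (between -0.37 and -0.33) to Notch3, Abcc9 and Cspg4, which lay within their SE of 0. Groups did not overlap for 3 genes, all lower (Kcnj8, Rgs5 and Pdgfrb), as for 12.5% of all tested probe sets, 7.9% being lower. Limma called 0 of the 7 at an adjusted p under 0.05 (0.0% of all probe sets were called) and 3 at an unadjusted p under 0.05, all lower, against 8.35% of all in either direction and 5.96% lower. Since the genes were chosen with this comparison known, nothing is read from these counts. With 1 heart left out at a time the median ran from -0.34 to -0.20. The median was -0.18 with Y-linked expression as a covariate. Without the hearts of high Xist, which leaves 1 Col4a3-/- heart, it was -0.053.

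**Figure D2:**
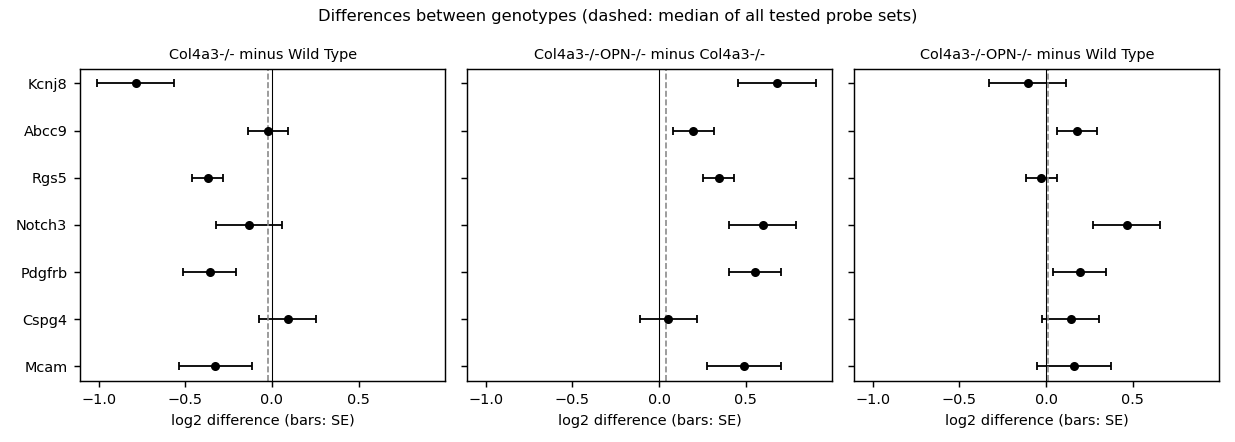
Log2 difference (horizontal axis, bars are the SE from limma) of each of the 7 genes in the 3 comparisons of genotypes, 3 hearts per group. The dashed line is the median over all tested probe sets, and Kcnj8 at -0.79 and 0.68 lies farthest from it in the first 2 comparisons, where Cspg4 lies near 0 in both.

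Setting Col4a3-/-OPN-/- against Col4a3-/- hearts addresses osteopontin on the Col4a3-/- background. All 7 genes were higher in Col4a3-/-OPN-/- hearts, with a median log2 difference of 0.49 against 0.04 over all tested probe sets, of which 57.7% were higher. Kcnj8 (0.68), Notch3 (0.60), Pdgfrb (0.55) and Mcam (0.49) had the larger differences, Rgs5 had 0.34, and Abcc9 (0.20) and Cspg4 (0.05) the smaller ones. Groups did not overlap for Rgs5, Notch3 and Pdgfrb, as for 16.5% of all tested probe sets, 10.1% being higher. For Notch3 this rested on the narrow margin between 6.59 and 6.60. Limma called 0 of the 7 (0.044% of all were called) and 5 were at an unadjusted p under 0.05, all higher, against 13.6% of all in either direction and 8.58% higher. This comparison and the first share the Col4a3-/- hearts, so low values in those hearts enter both with opposite sign. With 1 heart left out at a time the median ran from 0.36, without Col4a3-/-OPN-/- replicate 1, to 0.63, without Col4a3-/-OPN-/- replicate 3, and without the 3 hearts of high Xist it was 0.285. Lists of other cell types were higher here too: 11 of 11 smooth muscle genes (median 0.44), 6 of 6 atrial genes (0.63), 8 of 10 fibroblast genes (0.36) and 11 of 14 endothelial genes (0.26), while ventricular cardiomyocyte genes had a median of 0.05 and 6 of 8 macrophage genes were lower (-0.18). Their part in the values of the 7 genes was not tested.

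Against wild type, Col4a3-/-OPN-/- hearts had a median log2 difference of 0.16 over the 7 genes, against 0.01 over all tested probe sets. Abcc9 (0.18), Notch3 (0.46), Pdgfrb (0.19), Cspg4 (0.14) and Mcam (0.16) were higher, as were 53.1% of all, and Kcnj8 (-0.11) and Rgs5 (-0.03) were lower, as were 46.9%, and within their SE of 0. The groups were separate for Cspg4 alone, as for 13.2% of all probe sets, 7.55% being higher, by the narrow margin between 6.74 and 6.81. Limma called 0 of the 7 (0.0% of all), with 1 at an unadjusted p under 0.05, against 3.68% of all and 1.89% higher. The order of group means differed between genes: Kcnj8 and Rgs5 stood highest in wild type hearts with Col4a3-/-OPN-/- hearts within the error of them, while Notch3 and Pdgfrb stood highest in Col4a3-/-OPN-/- hearts. The Col4a3-/- mean was the lowest of the 3 genotypes for 6 of the 7 genes, as for 44.9% of all tested probe sets, and the Col4a3-/-OPN-/- mean the highest for 5, as for 38.9%.

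**Figure D3:**
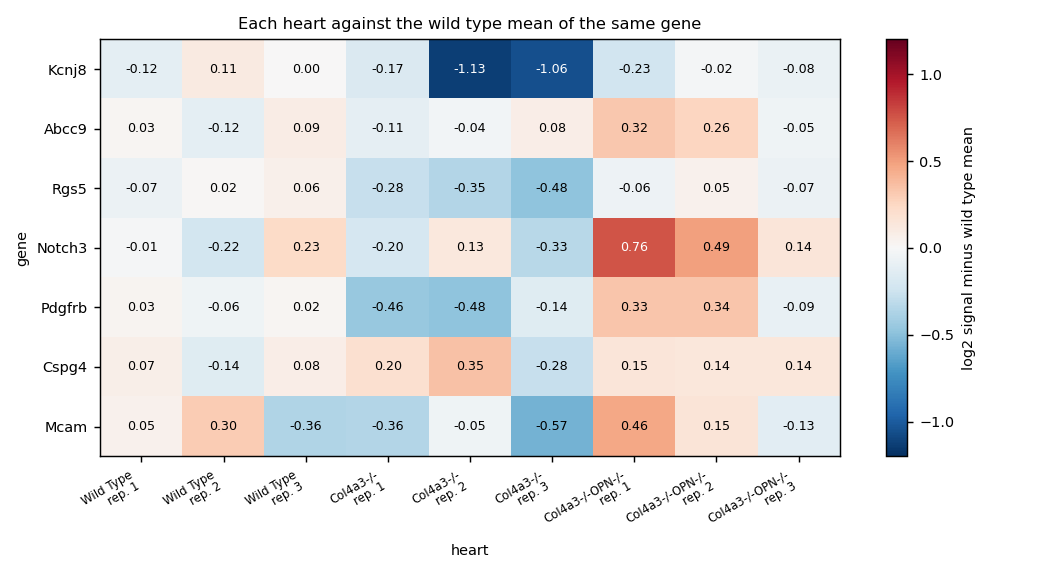
Log2 signal of each gene (rows) in each heart (columns) minus the wild type mean of the same gene, with the value printed and blue for lower, red for higher. Col4a3-/- replicates 2 and 3 are at -1.13 and -1.06 for Kcnj8, and Col4a3-/-OPN-/- replicate 1 is at 0.76 for Notch3.

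Heart by heart, the genes were not low in the same Col4a3-/- animals. Col4a3-/- replicate 3 was the lowest of the 9 hearts for 4 genes (Rgs5, Notch3, Cspg4 and Mcam) and lay below every wild type heart for 6 of the 7. Replicate 2 was the lowest for Kcnj8 and Pdgfrb and at the same time the highest for Cspg4. Replicate 1 was the lowest for none, yet lay below the wild type mean for 6 of the 7. Col4a3-/-OPN-/- replicate 1 was the highest heart for 3 genes, Abcc9, Notch3 and Mcam. The mean over the 7 genes, relative to wild type, was -0.20, -0.22 and -0.40 for the Col4a3-/- hearts and 0.25, 0.20 and -0.02 for the Col4a3-/-OPN-/- hearts, so that Col4a3-/-OPN-/- replicate 3 sat at the wild type level.

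With the 3 hearts of high Xist set aside, 3 wild type hearts, Col4a3-/- replicate 2 and Col4a3-/-OPN-/- replicates 1 and 3 remained. Among these 6 hearts the single Col4a3-/- heart was the lowest for Kcnj8 (7.28, against 8.19 to 8.53), for Rgs5 (11.04, against 11.32 to 11.45) and for Pdgfrb (8.12, against 8.52 to 8.94). It was the highest for Cspg4 (7.02), and it lay inside the range of the others for Abcc9, Notch3 and Mcam. The median difference from wild type over the 7 genes was then -0.053, and the difference of Kcnj8 was -1.13, both resting on the single Col4a3-/- heart. Col4a3-/-OPN-/- replicate 2, which had high Xist, was at 8.40 for Kcnj8, 11.44 for Rgs5 and 8.94 for Pdgfrb, all above the Col4a3-/- hearts. Of the Col4a3-/- hearts, replicate 1 had Bmp10 at 5.72 and Kcnj8 at 8.25, replicate 2 had 9.17 and 7.28, and replicate 3 had 7.40 and 7.36. The part of atrial tissue in the values of Kcnj8 was not tested.

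A wider list of 25 further genes enriched in pericytes was examined, of which 23 were analysed here and 21 tested (Foxf2 and Ifitm1 were too dim). In Col4a3-/- against wild type hearts 16 of 21 were lower, with a median log2 difference of -0.22 against -0.02 over all probe sets, and limma called 0 of them, 6 being lower at an unadjusted p under 0.05, as were 5.96% of all. The lowest were Rgs4, a relative of Rgs5 (-0.91, SE 0.24, limma adjusted p = 0.427), and vitronectin, Vtn, a matrix protein made by pericytes (-0.69, SE 0.23, adjusted p = 0.496). The highest were the metalloreductase gene Steap4 (0.41, SE 0.28, adjusted p = 0.719) and Art3 (0.08). The median was -0.37 without Col4a3-/- replicate 1 and -0.13 without Col4a3-/- replicate 3.

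Rgs4 lies next to Rgs5 in the RefSeq gene order on chromosome 1. It was at 6.61, 6.59 and 7.08 in wild type hearts, at 6.10, 6.17 and 5.28 in Col4a3-/- hearts, and at 6.54, 6.63 and 6.90 in Col4a3-/-OPN-/- hearts. As with Rgs5, the 3 Col4a3-/- hearts were below the other 6 and replicate 3 was the lowest. The other tested regulators of its family did not share a direction: Rgs2 had 0.37 (adjusted p = 0.737), Rgs16 0.07, Rgs8 -0.00 and Rgs3 -0.25 in Col4a3-/- against wild type hearts, all without a call in limma.

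In Col4a3-/-OPN-/- against Col4a3-/- hearts 18 of the 21 wider genes were higher, with a median of 0.38 against 0.04 over all, and limma called 0 of them, 9 being higher at an unadjusted p under 0.05, as were 8.58% of all. Gucy1a1, a subunit of the nitric oxide receptor guanylate cyclase, had the largest difference (0.90, limma adjusted p = 0.132), and its partner subunit Gucy1b1 had 0.40 (adjusted p = 0.303). Gucy1a1 was at 7.47, 7.78 and 7.98 in wild type hearts, at 7.41, 7.44 and 6.91 in Col4a3-/- hearts, and at 8.05, 8.20 and 8.20 in Col4a3-/-OPN-/- hearts. The 3 genotypes lay side by side without overlap, Col4a3-/- and wild type by the narrow margin between 7.44 and 7.47. Over all tested probe sets 7.9% were lower without overlap in Col4a3-/- than in wild type hearts. In Col4a3-/-OPN-/- hearts 10.1% were higher without overlap than in Col4a3-/- hearts, and 7.55% than in wild type hearts. Rgs4 followed (0.84, adjusted p = 0.206), and the lowest were Steap4 (-0.21, adjusted p = 0.769) and desmin, Des (-0.12, adjusted p = 0.671), a filament protein also abundant in cardiomyocytes. Without Col4a3-/- replicate 3 the median was 0.15, and without the hearts of high Xist 0.16. Against wild type the median of the 21 genes in Col4a3-/-OPN-/- hearts was near 0, with 11 higher and 10 lower. Limma called 0, and 1 was higher at an unadjusted p under 0.05, as were 1.89% of all.

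**Figure D4:**
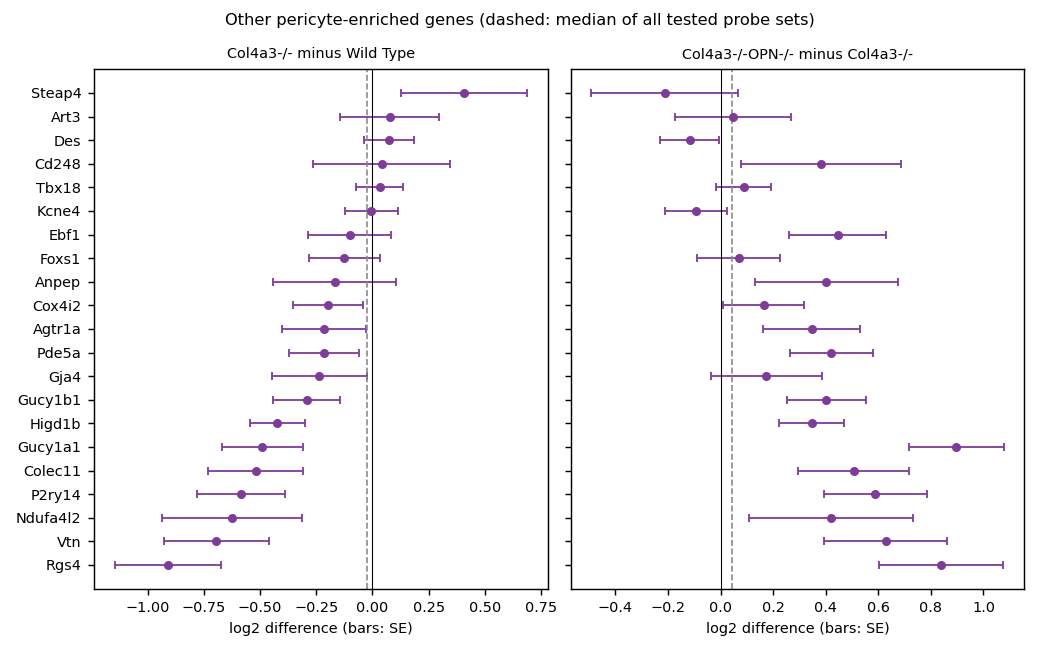
Log2 difference (horizontal axis, bars are the SE from limma) of the 21 tested genes of the wider pericyte list in the first 2 comparisons, 3 hearts per group, ordered by the first. The dashed line is the median over all tested probe sets. Rgs4 is at -0.91 and 0.84, and Steap4 at 0.41 and -0.21.

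Of 5 other PDGF genes all were tested, and limma called 0 in any comparison. Pdgfd, a ligand of the Pdgfrb receptor, had -0.48 (SE 0.14, limma adjusted p = 0.460) in Col4a3-/- against wild type hearts. In Col4a3-/-OPN-/- against Col4a3-/- hearts it had 0.62 (adjusted p = 0.156). Its groups did not overlap in either comparison, where 7.9% of all tested probe sets were lower without overlap in the first and 10.1% higher in the second. It was at 7.19, 7.29 and 7.57 in wild type hearts, at 6.73, 6.93 and 6.95 in Col4a3-/- hearts, and at 7.39, 7.60 and 7.49 in Col4a3-/-OPN-/- hearts. Pdgfb, the endothelial ligand, had -0.33 (SE 0.21, adjusted p = 0.686) and 0.53 (adjusted p = 0.316), with Col4a3-/- replicate 2, at 6.88, inside the wild type range. The fibroblast receptor Pdgfra had 0.13 (adjusted p = 0.827) and 0.04, and Pdgfa, a ligand that Pdgfra binds, 0.08 and -0.21 (adjusted p = 0.436). In the second comparison Pdgfa was lower without overlap, where 16.5% of all tested probe sets did not overlap in either direction.

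Of 14 Notch genes other than Notch3 all were tested, and limma called 0 in any comparison. In Col4a3-/- against wild type hearts 13 of 14 were lower (median -0.14) and the receptor gene Notch2 was the exception, at 0.00. At an unadjusted p under 0.05 in limma 1 was lower, as were 5.96% of all tested probe sets. The lowest were the endothelial ligand Dll4 (-0.47, SE 0.20, limma adjusted p = 0.564) and the target gene Heyl of mural cells (-0.24, adjusted p = 0.750). In Col4a3-/-OPN-/- against Col4a3-/- hearts 11 of 14 were higher (median 0.14), led by the ligands Jag1 (0.55, adjusted p = 0.446) and Jag2 (0.46, adjusted p = 0.304). At an unadjusted p under 0.05 in limma 1 was higher, as were 8.58% of all. Among the targets there, Heyl had 0.10, Hes1 -0.08 and Nrarp -0.19 (adjusted p = 0.516). Against wild type, Col4a3-/-OPN-/- hearts had Notch3 at 0.46 and Jag1 at 0.42, with Heyl at -0.14 and Nrarp at -0.31 (adjusted p = 0.999), and 7 of 14 were higher.

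Of 12 genes that signal between pericytes and endothelium, 10 were lower in Col4a3-/- against wild type hearts (median -0.16) and 10 higher in Col4a3-/-OPN-/- against Col4a3-/- hearts (median 0.26). Limma called 0 in either. At an unadjusted p under 0.05 the first had 1 lower and 1 higher gene (8.35% of all probe sets in either direction). The second had 2 higher genes, as were 8.58% of all. The sphingosine phosphate receptor genes S1pr3 (-0.55, SE 0.35, limma adjusted p = 0.685) and S1pr1 (-0.43, adjusted p = 0.559) were at the low end of the first comparison, and the TGF-beta receptor gene Tgfbr2 (0.38, adjusted p = 0.580) at the high end. Angpt1, the pericyte ligand of the endothelial receptor Tek, had the highest difference of the second (0.76, adjusted p = 0.272). Lama4, a laminin chain of vessel walls to which Mcam binds, had -0.12 and 0.33.

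Markers of neighbouring cell types were read beside these values. Smooth muscle genes were lower in Col4a3-/- than in wild type hearts in 11 of 11 cases (median -0.62), 9 of them without overlap (7.9% of all tested probe sets were lower without overlap) and 9 at an unadjusted p under 0.05 (5.96% of all were lower at that level), with 0 called by limma. Their summed log2 signal was 12.04 to 12.31 in wild type, 11.05 to 11.66 in Col4a3-/- and 11.82 to 11.92 in Col4a3-/-OPN-/- hearts, so the Col4a3-/- hearts did not overlap the others. The smooth muscle myosin gene Myh11 rose in Col4a3-/-OPN-/- against Col4a3-/- hearts (1.28, limma adjusted p = 0.0104). That call was lost in 3 of 20 alternatives, with the replicate number as a block (adjusted p = 0.0753), with Y-linked expression as a covariate (0.0876) and without Col4a3-/-OPN-/- replicate 1 (0.0671), with adjusted p from 0.00501 to 0.0876 and differences from 1.15 to 1.34 over all 20. Smooth muscle makes several of the 7 genes too, among them Kcnj8, Abcc9, Rgs5, Notch3 and Mcam. The part of smooth muscle in the values of the 7 genes was not tested. Myocd, a coactivator shared by smooth and heart muscle, was at -0.03.

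Endothelial genes were lower in 10 of 14 cases in Col4a3-/- against wild type hearts (median -0.15). At an unadjusted p under 0.05 in limma 3 were lower, as were 5.96% of all tested probe sets. Their summed log2 signal overlapped, with 12.94 to 13.38 in Col4a3-/-, 13.27 to 13.39 in wild type and 13.25 to 13.36 in Col4a3-/-OPN-/- hearts. Kdr, a receptor of vascular endothelial growth factor, had the lowest difference (-0.76, limma adjusted p = 0.542), and Cldn5 the highest (0.27). Fibroblast genes were lower in 7 of 10 cases (median -0.28), 1 of them at an unadjusted p under 0.05 (5.96% of all were lower at that level). Their sums overlapped (13.13 to 13.25 in wild type, 12.91 to 13.31 in Col4a3-/- and 13.21 to 13.26 in Col4a3-/-OPN-/- hearts). Ventricular cardiomyocyte genes had a median of -0.02 over 11 genes, and their sums ran from 15.58 to 15.68 over all 9 hearts. Macrophage genes were higher in 5 of 8 cases (median 0.25), 3 of them at an unadjusted p under 0.05 in limma. Of all tested probe sets 8.35% were at that level in either direction, 5.96% being lower. Schwann cell genes had a median of 0.07 over the 3 tested. Limma called 0 genes of these 5 lists in Col4a3-/- against wild type hearts.

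**Figure D5:**
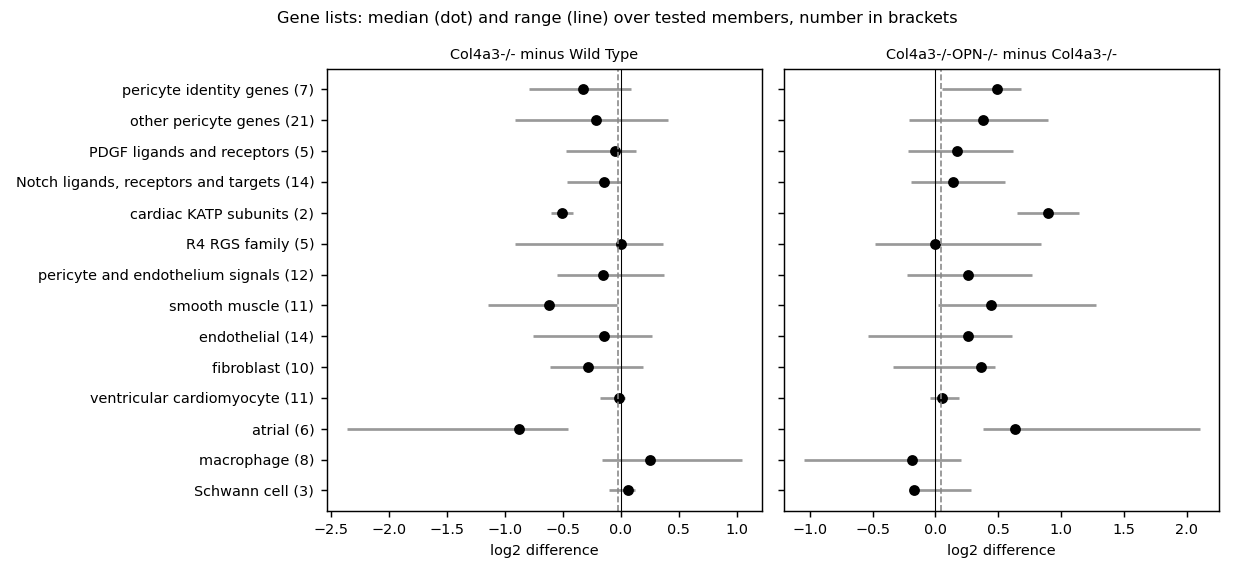
Median (dot) and full range (line) of the log2 differences of each gene list in the first 2 comparisons, with the number of tested genes in brackets. The dashed line is the median over all tested probe sets. The pericyte identity genes have medians of -0.33 and 0.49, and the ventricular cardiomyocyte list -0.02 and 0.05.

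The pattern of each gene over the 9 hearts was set against that of every other tested probe set, as the mean absolute difference in log2 units after each was centred on its own mean over the 9 hearts. Kcnj8 was closest to Art4 (0.11), 4930430F08Rik (0.12) and Sike1 (0.13), against a median of 0.37 over all probe sets. Rgs5 was closest to Elp3, D830013O20Rik and Pmpca (0.05 each, against 0.20), Pdgfrb to Adgrl2 (0.07), Mid1 (0.08) and Zcchc8 (0.09, against 0.26), and Notch3 to Mcf2l (0.09), Syne1 (0.10) and Dhx57 (0.10, against 0.30). The nearest to Abcc9 were Tmod3, Thumpd2 and Nf2 (0.05 each), to Cspg4 Axl (0.05), Selenot and Lig3, and to Mcam Ext1, Fads1 and Ces2g. Of these 21 neighbours 0 belonged to any of the gene lists used here. Among the 7 genes themselves the closest pair was Abcc9 and Pdgfrb (0.15) and the most distant Kcnj8 and Notch3 (0.41). The channel partners Kcnj8 and Abcc9 were 0.39 apart and on the same side of their means in 4 of 9 hearts. Beside these pairs, the median over all probe sets was 0.18 for Abcc9 and 0.37 for Kcnj8. The measure also depends on how widely a gene ranged (0.44 for Abcc9 and 1.25 for Kcnj8), so it does not measure shared pattern alone.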

How the data were processed

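Total RNA of 9 hearts, isolated with a mirVana PARIS kit, was measured on 1 array per heart; per the labels' protocols the label was added with an Affymetrix FlashTag kit, made for small RNA, so how the RNA was labelled is uncertain. The deposited values are log2 signals made with RMA, per the submitters' processing notes, with no version given in the sources used here. RMA normalizes arrays to 1 distribution and compresses small differences of dim probe sets. Per the platform annotation 23521 of 33793 probe sets had 1 gene symbol, and 23328 of them matched the RefSeq table of GRCm38.p6 by gene identifier. The 13650 with a mean above 5.21, the median of all, were tested.

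The 9 arrays were fitted together in limma (eBayes with an intensity trend, limma 3.58.1, R 4.3.3), with two-sided p-values adjusted by Benjamini-Hochberg at 0.05, tested on simulated data. The labels give 3 mice per genotype, and this number limits the precision (median SE 0.15). The brightest probe set represented a gene with several.

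The 7 genes, the 13 other lists and the tests were chosen with earlier results of these data known. Named are all 7 genes, the 2 highest and 2 lowest of each pericyte or signalling list, up to 4 extremes of each cell type list, genes past the threshold, 3 nearest patterns per gene, and markers of sex, atrium, airway, brown fat and endothelial activation. Gucy1b1, Lama4 and Tnnt2 were named after their values were seen. Alternatives concerned the scaling, the filter, the moderation, array weights, the arrays in the fit, the replicate number, the sex markers and the left-out arrays.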

Additional observations from a re-analysis of the deposited data

How the results depend on the processing

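Over 20 alternatives the median difference of the 7 genes kept its sign in all 3 comparisons, and also when the probe sets of a gene were averaged. It moved by more than the spread between hearts with Y-linked expression as a covariate (-0.18 for Col4a3-/- minus wild type) and without the hearts of high Xist (-0.053 for that comparison and 0.285 for Col4a3-/-OPN-/- minus Col4a3-/-), and to 0.63 in the latter comparison without Col4a3-/-OPN-/- replicate 3. Left-out arrays gave -0.34 to -0.20 for Col4a3-/- minus wild type, 0.36 to 0.63 for Col4a3-/-OPN-/- minus Col4a3-/- and 0.11 to 0.29 for Col4a3-/-OPN-/- minus wild type. Signs turned in at least 1 setting for Abcc9, Cspg4 and Notch3 in the first comparison, Cspg4 in the second, and Rgs5 and Mcam in the third.

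The number of probe sets called over the whole array was 0, 6 and 0 in the 3 comparisons, none of them 1 of the 7 genes. For Col4a3-/- minus wild type it was 1 with centred arrays, the stricter filter, no intensity trend, robust moderation or the Y-linked covariate, 31 without the hearts of high Xist, and 0 to 6 over left-out arrays (1 without wild type replicate 1, 4 and 6 without Col4a3-/- replicates 1 and 2). For Col4a3-/-OPN-/- minus Col4a3-/- it was 2 with the stricter filter, 2 with array weights, 0 with the Y-linked covariate, 23 without the hearts of high Xist, and 0 to 22 over left-out arrays (1 without wild type replicate 3, 11, 22 and 2 without Col4a3-/- replicates 1 to 3, 0 without Col4a3-/-OPN-/- replicate 1). For Col4a3-/-OPN-/- minus wild type it was 1 with array weights, 1 with the Y-linked covariate, 7 without the hearts of high Xist, and 0 to 3 over left-out arrays (1 without wild type replicate 2, 3 without Col4a3-/-OPN-/- replicate 2). The cause was not tested.

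With the replicate number as a block, 0 probe sets were called in Col4a3-/-OPN-/- minus Col4a3-/- and in the other comparisons. Deviations of hearts with the same number correlated between -0.19 and 0.23, above 0.1 in 2 of 9 pairs. Of the 9 hearts, 2 correlated best with their own number in both other genotypes. These correlations cannot tell whether hearts with the same number share anything besides it.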
